A study of Oryctolagus cuniculus with 12 samples.

Results

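The contractile genes of smooth muscle and myofibroblasts were measured in rabbit conjunctiva after glaucoma filtration surgery and in conjunctiva of eyes without surgery. The set was given as a list of 10 gene symbols: ACTA2, ACTG2, TAGLN, CNN1, MYL9, MYH11, MYLK, TPM1, TPM2, and LMOD1. Genes were taken from the deposited gene table where the name equalled a listed symbol, which gave 9 of the 20566 genes in the table, and all 9 had enough counts to be tested. CNN1 was not analysed here.

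The study compared 12 libraries in groups of 3, and all animals were female Japanese White rabbits whose age is not given in the labels. The TL3h, TL3d, and TL14d groups were conjunctiva with the filtration bleb from right eyes, taken after trabeculectomy (TL) with mitomycin C at the times in their names (3 hours, 3 days, or 14 days), an alkylating drug that limits scarring. The control group was conjunctiva of left eyes without surgery, so the controls carried neither the wound nor the drug. Per the methods of the study, operated eyes also received betamethasone and an antibiotic ointment, and the groups therefore differ in these agents too. Which control eye belonged to which operated eye, and when it was taken, is not given in the sources used here. The labels do not say that the libraries of a group came from separate rabbits, so p-values measure the spread between these libraries.

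Smooth muscle and myofibroblasts contract when myosin filaments pull on actin filaments. A rise in calcium switches on myosin light chain kinase, which phosphorylates the regulatory light chain of myosin, and tropomyosin, calponin, and transgelin bind along the actin filament. In normal tissue these genes mark the muscle coat of vessels. In wounds, fibroblasts can acquire part of the program and become myofibroblasts, which are usually recognized by alpha smooth muscle actin and which draw a scar together. In a filtration bleb such scarring can close the drainage path.

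The total estimated count ranged from 27111348 to 38591425 per library. Levels are given as CPM, the share of a library's counts scaled to a common depth with TMM factors, which ran from 0.768 to 0.783 at 3 hours and from 1.03 to 1.13 in the other 9 libraries. Tests are edgeR quasi-likelihood tests from 1 fit over all libraries, q is the p-value adjusted over the 14835 genes tested, and a gene was called where q was under 0.05. The floor is the level of 3 counts, the upper limit for a gene without counts, and lay between 0.0712 and 0.124 CPM (counting error only). The labelled tissue was checked by 5 epithelial markers, KRT5, KRT15, EPCAM, CDH1, and TP63, whose summed level was 3490 to 10300 CPM in every library. Because the libraries are bulk tissue, fewer cells of a type and less RNA per cell cannot be told apart.

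ACTA2, TAGLN, and MYL9, with the tropomyosins TPM1 and TPM2, had higher mean levels at 3 days and 14 days than in control conjunctiva, by 2.43-fold to 38.8-fold. The replicates of these 2 groups were far apart, and of 18 such tests against the control group over the 9 genes, 1 was past the threshold (ACTG2 at 3 days), where 17.6% of all genes were past it at 3 days and 0% at 14 days. At 3 hours TAGLN was 13-fold higher without passing the threshold. MYLK and LMOD1 had mean levels near or below those of the control group at 3 days, and MYH11 did so at 14 days.

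**Figure D1:**
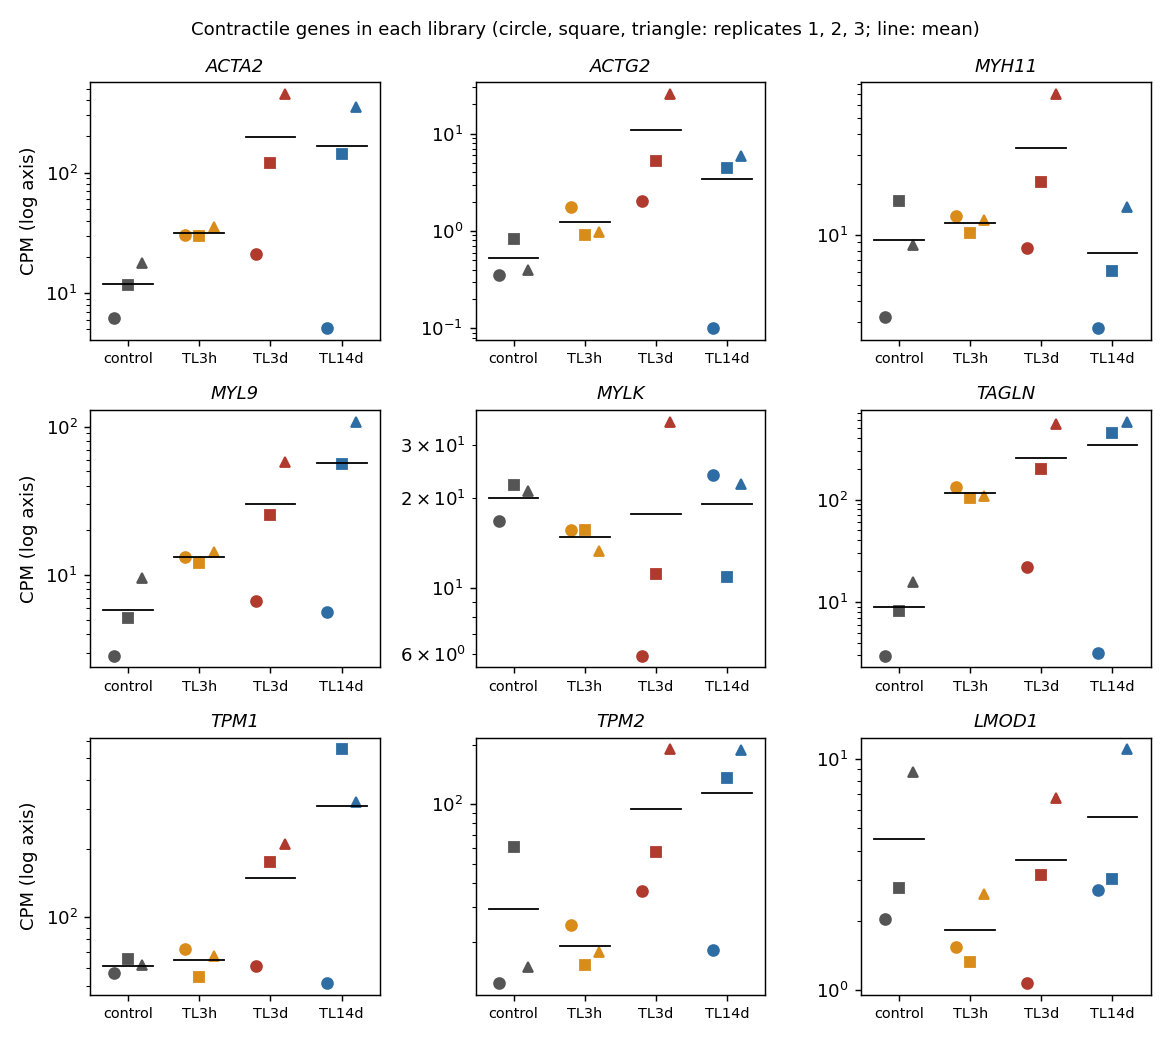
Level of each of the 9 contractile genes in each library, in CPM on a log axis, by group; circle, square, and triangle are replicates 1, 2, and 3 and the line is the group mean. ACTA2 lies between 29.7 and 35.2 CPM in the TL3h libraries but between 5.14 and 352 CPM in the TL14d libraries.

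The smooth muscle actins form the thin filament. ACTA2 encodes alpha smooth muscle actin, the actin of vascular smooth muscle and myofibroblasts (gene ID 100009271, chromosome 18 of OryCun2.0, 36853676 to 36870691, minus strand). In the control libraries it was at 6.19, 11.7, and 17.9 CPM, and at 3 hours at 30.3, 29.7, and 35.2 CPM. At 3 days it was at 21.1, 120, and 450 CPM, and at 14 days at 5.14, 142, and 352 CPM. All TL3h and TL3d libraries lay above the control libraries, whereas TL14d replicate 1 lay below each of them. The log2 fold change over control was 1.41 (SE 1.21, q = 0.375) at 3 hours, 4.04 (SE 1.33, q = 0.061) at 3 days, and 3.80 (SE 1.32, q = 0.405) at 14 days. None of these passed the threshold.

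ACTG2 encodes gamma smooth muscle actin, which is best known from visceral muscle (gene ID 100350318, chromosome 2, 112583261 to 112603751, minus strand). It was scarce in control conjunctiva, at 0.356, 0.825, and 0.401 CPM, and at 1.77, 0.913, and 0.988 CPM at 3 hours. The TL3d libraries were at 2.05, 5.27, and 25.5 CPM, all above the controls. At 14 days the levels were 0.101, 4.40, and 5.86 CPM, the first of which equals the 3-count floor of that library. ACTG2 rose at 3 days with a log2 fold change of 4.37 (SE 1.27, q = 0.0418), a 20.6-fold higher mean. This call was lost in 10 of the 12 fits that left out 1 library (q up to 0.126), namely each control, TL3h, and TL3d library and TL14d replicate 3, and without TL3d replicate 3 the log2 fold change was 2.78 (q = 0.11). It was also lost with limma on log2 FPKM (3.42, q = 0.0667) and on log2 CPM (3.58, q = 0.0755). With the replicate number as a block it was lost too (3.82, q = 0.0629). At 14 days the log2 fold change was 2.71 (SE 1.19, q = 0.477).

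The myosin side of the machinery comprises the heavy chain MYH11, the regulatory light chain MYL9, and the kinase MYLK. MYL9 is the light chain whose phosphorylation starts contraction (gene ID 100343384, chromosome 4, 3443207 to 3448415, minus strand). It was at 2.87, 5.15, and 9.53 CPM in the control libraries and at 13.3, 12.1, and 14.3 CPM at 3 hours. The later levels were 6.72, 25.4, and 57.7 CPM at 3 days and 5.65, 56.4, and 108 CPM at 14 days. The TL3h libraries lay above all controls in CPM but not in FPKM (lowest TL3h library 7.60, highest control 8.14). Replicate 1 of each later group lay within the control range. The log2 fold changes were 1.18 (SE 0.93, q = 0.337), 2.36 (SE 0.96, q = 0.108), and 3.27 (SE 0.997, q = 0.358) in order of time.

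MYH11, the smooth muscle myosin heavy chain and a marker of differentiated smooth muscle, has gene ID 100009145 (chromosome 6, 11019065 to 11130977, plus strand). Its control levels were 3.23, 15.9, and 8.63 CPM, and its TL3h levels were 12.9, 10.3, and 12.2 CPM. At 3 days it was at 8.32, 20.6, and 69.6 CPM, with 2 libraries above every control. At 14 days it was at 2.76, 6.03, and 14.6 CPM, all under the highest control. The log2 fold change was 1.82 (SE 0.83, q = 0.142) at 3 days and −0.25 (SE 0.81, q = 0.934) at 14 days, and the step from 3 to 14 days was −2.07 (SE 0.84, q = 0.182).

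MYLK, the kinase, has gene ID 100009143 (chromosome 14, 95414904 to 95496437, plus strand). It was at 16.7, 22.2, and 21.1 CPM in the control libraries and lower in each TL3h library, at 15.6, 15.6, and 13.3 CPM. It was at 5.95, 11.2, and 36.0 CPM at 3 days and at 23.9, 10.9, and 22.3 CPM at 14 days. Its log2 fold changes were −0.43, −0.18, and −0.07, with q of at least 0.556. MYLK was the only one of the 9 genes for which TL14d replicate 1 was the highest library of its group.

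**Figure D2:**
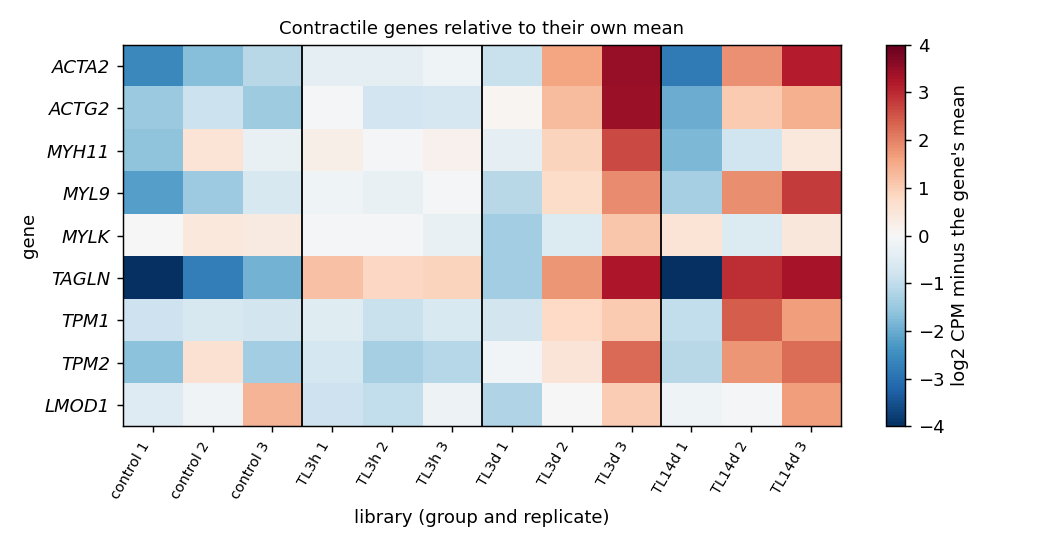
Log2 CPM of each contractile gene minus that gene's mean over the 12 libraries, with 1 column per library in the order control, TL3h, TL3d, TL14d. TL3d replicate 3 and TL14d replicate 3 are above the mean for all 9 genes, and TL3d replicate 1 and TL14d replicate 1 are above it for 1 gene each.

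Among the proteins that bind actin filaments, TAGLN encodes transgelin, or SM22, an early smooth muscle marker and a target of TGF-beta in fibroblasts (gene ID 103344936, chromosome 1, 99217021 to 99221429, minus strand). TAGLN was at 2.99, 8.15, and 15.5 CPM in the control libraries and at 132, 104, and 109 CPM at 3 hours, so the groups did not overlap. At 3 days it was at 22.2, 199, and 551 CPM and at 14 days at 3.19, 452, and 578 CPM. The lowest TL3d library was still above all controls, and the lowest TL14d library lay within them. The log2 fold changes were 3.70 (SE 1.48, q = 0.0655) at 3 hours, 4.86 (SE 1.56, q = 0.0568) at 3 days, and 5.28 (SE 1.60, q = 0.357) at 14 days.

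A second row of the table is annotated transgelin under the name LOC100009332, on chromosome 15. It was at 0.356, 1.30, and 1.66 CPM in the control libraries and at 15.3, 12.9, and 11.5 CPM at 3 hours. At 3 days it was at 3.37, 25.0, and 79.0 CPM and at 14 days at 0.639, 66.0, and 85.6 CPM. Its log2 fold change over control at 3 days was 5.02 (q = 0.0469), past the threshold, where 10.6% of all genes were higher. This row held 9.55% to 16.7% of the counts of both rows in every library. The TAGLN value was not a whole number in 83.3% of the libraries, which is not a share of its reads. That share was 66.7% for MYLK, 41.7% for MYL9 and TPM1, and 23.4% over all gene values. Reads may thus be divided between the 2 transgelin rows, and the level of each is uncertain.

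TPM1 and TPM2 encode tropomyosins, coiled coils that lie along the actin filament and set the access of myosin to it. TPM1 (gene ID 100125989, chromosome 17, 9208797 to 9235212, minus strand) was even in the control libraries, at 56.8, 65.3, and 61.5 CPM, and at 3 hours, at 72.6, 54.2, and 67.2 CPM. It was at 61.0, 176, and 209 CPM at 3 days and at 51.2, 549, and 323 CPM at 14 days. In both later groups replicates 2 and 3 were above every control, and replicate 1 lay within the controls at 3 days and under them at 14 days. The log2 fold changes were 0.08 (SE 0.66, q = 0.932; −0.42 with library size alone), 1.28 (SE 0.67, q = 0.195), and 2.33 (SE 0.70, q = 0.351).

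TPM2 (gene ID 100125984, chromosome 1, 18242478 to 18250240, plus strand) was at 12.3, 60.5, and 14.9 CPM in the control libraries, with replicate 2 apart from the others, and at 24.3, 15.4, and 17.9 CPM at 3 hours. It was at 36.4, 57.2, and 191 CPM at 3 days and at 18.2, 136, and 189 CPM at 14 days. The TL3d libraries all lay above the TL3h libraries but overlapped the controls. The log2 fold changes over control were −0.61 (SE 0.88, q = 0.61), 1.70 (SE 0.90, q = 0.2), and 1.97 (SE 0.91, q = 0.488).

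LMOD1, leiomodin, which nucleates actin filaments in smooth muscle, has gene ID 100358282 (chromosome 16, 69653675 to 69691985, plus strand). It was at 2.04, 2.78, and 8.73 CPM in the control libraries and at 1.54, 1.33, and 2.6 CPM at 3 hours. It was at 1.07, 3.14, and 6.74 CPM at 3 days and at 2.72, 3.02, and 11 CPM at 14 days. These ranges overlapped the controls at each time, and the log2 fold changes were −1.31 (SE 0.81, q = 0.215), −0.31 (SE 0.79, q = 0.806), and 0.30 (SE 0.78, q = 0.915).

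Set against all genes at 3 hours, 0 of the 9 contractile genes passed the threshold, where 45.4% of all genes tested did. In the edgeR test 1 of the 9 genes (TAGLN) and 7761 of all genes had an unadjusted p under 0.05. In 4 of the 9 genes (ACTA2, ACTG2, TAGLN, and MYL9) every TL3h library was above every control in CPM, and in 1 (MYLK) every one was below. Among all genes 28.9% and 28.3% did so. In the deposited FPKM, divided by length and depth, ACTG2 and MYL9 overlapped the controls at 3 hours. Their lowest TL3h libraries were at 0.481 and 7.60 FPKM, and their highest controls at 0.633 and 8.14 FPKM. The median log2 fold change of the 9 genes was 0.35, beside 0.02 over all genes, but it was 0.03 without control replicate 1, 0.99 without control replicate 2, and −0.15 with library size alone (−0.47 over all genes). In 2 of the 12 fits that left out 1 library TAGLN passed the threshold, without TL14d replicate 1 (q = 0.013) and without TL3d replicate 1.

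At 3 days 1 of the 9 genes was called, in the higher direction, where 17.6% of all genes were called and 10.6% were higher. Groups did not overlap for 3 of the 9 genes (ACTA2, ACTG2, and TAGLN), against 23.8% of all genes in that direction. The median log2 fold change was 1.83 for the 9 genes and −0.00182 for all genes, with 7 of the 9 values above 0, and without TL3d replicate 3 they were 0.95 and −0.03. TL3d replicate 3 was the highest and replicate 1 the lowest library of its group for 9 of 9 genes. The 3 fits that left out TL3d replicate 1, 2, or 3 called 0 of the 9 genes higher and 2.97%, 2.37%, and 15.2% of all genes in either direction.

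At 14 days 0 of the 9 genes were past the threshold, as were 0% of all genes. In the edgeR test 5 of the 9 genes (ACTA2, ACTG2, TAGLN, MYL9, and TPM1) and 1538 of all genes had an unadjusted p under 0.05, and the DESeq2 test called 4 of the 9 and 2.47% of all genes. The median log2 fold change was 2.33, beside 0.02 over all genes, and for 0 of the 9 genes were the libraries all above or all below the controls, against 6.03% and 5.11% of all genes. TL14d replicate 1 was the lowest of its group for 8 of 9 genes and was above all controls for MYLK alone. Without that library, ACTA2 (log2 fold change 4.37, q = 0.0473), TAGLN (5.86, q = 0.0256), MYL9 (3.81, q = 0.0319), and TPM1 (2.83, q = 0.0137) were past the threshold at 14 days, where 4.74% of all genes then were. In the same fit 5 of the 9 genes were past it at 3 days, ACTA2, ACTG2, TAGLN, MYL9, and TPM1, where 25.0% of all genes were, because the spread is estimated over all groups together.

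**Figure D3:**
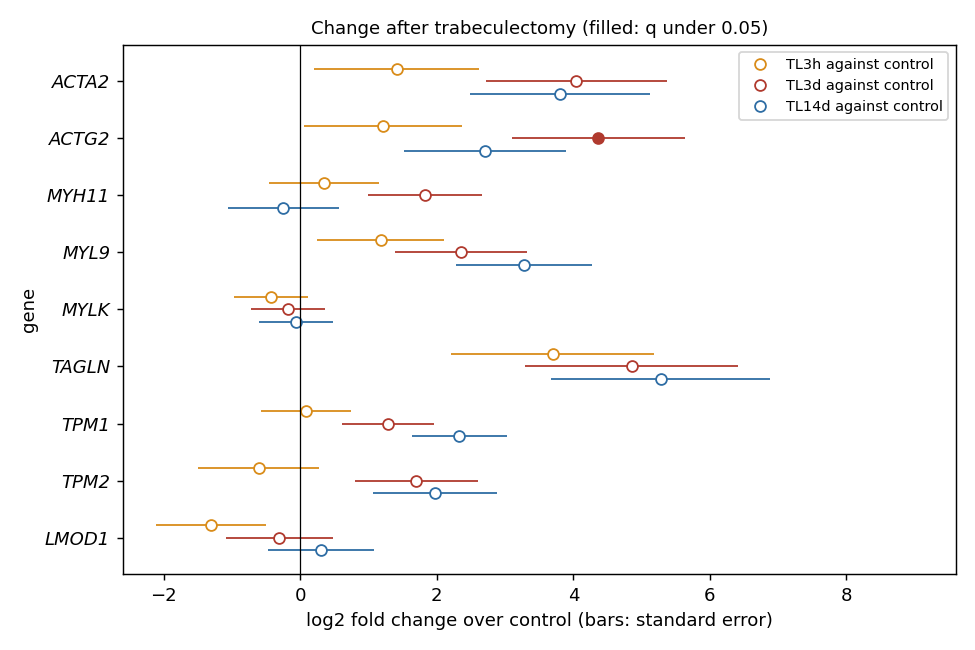
Log2 fold change over control of each contractile gene in the TL3h, TL3d, and TL14d groups, with bars for 1 standard error; filled points have a q under 0.05. The filled point is ACTG2 at 3 days (4.37), and the bars of MYLK include 0 at all 3 times.

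The times after surgery were also compared with each other. Between 3 hours and 3 days all 9 log2 fold changes were above 0 (median 1.2, and 0.3 without TL3d replicate 3) and 0 were past the threshold, where 37.3% of all genes were. The smallest q belonged to ACTG2 (3.16, SE 1.2, q = 0.0615) and TPM2 (2.31, SE 0.92, q = 0.0734), for which the groups did not overlap, as for 26.2% of all genes in that direction. From 3 days to 14 days 0 of the 9 genes and 2.24% of all genes were past the threshold. Over the span from 3 hours to 14 days 2 of the 9 genes were called higher and 0 lower, against 22.9% and 22.3% of all genes.

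These were the tropomyosins. TPM1 rose from 3 hours to 14 days by a log2 fold change of 2.25 (SE 0.69, q = 0.0235), from 64.7 ± 9.44 to 308 ± 249 CPM (SD, n = 3 libraries). TPM2 rose by 2.58 (SE 0.93, q = 0.0443), from 19.2 ± 4.59 to 115 ± 87.7 CPM (SD, n = 3 libraries). In both genes TL14d replicate 1 lay within or below the TL3h libraries. The TPM1 call was lost without any TL3h library (q from 0.0539 to 0.0724) and without TL14d replicate 2 (log2 fold change 1.53, q = 0.0908), and also with the 6 libraries alone (q = 0.0539). The TPM2 call was lost without any TL3h library (q from 0.0819 to 0.118), without TL3d replicate 2 (q = 0.0562), and without TL14d replicates 2 (q = 0.0857) or 3 (q = 0.131). With the replicate number as a block the TPM2 call was lost as well (1.98, q = 0.105). Both calls were lost with limma on log2 CPM (q = 0.0859 for TPM1 and 0.0956 for TPM2). When the 3 times were tested together against the control group, 2 of the 9 genes were past the threshold, ACTG2 (q = 0.0368) and TPM1 (q = 0.0321), where 52.4% of all genes were.

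The genes were compared with each other only by FPKM, the deposited values divided by transcript length. In control conjunctiva TPM2 (19.9 ± 18.8 FPKM) and TPM1 (17.8 ± 1.45 FPKM) came first, then ACTA2 (9.06 ± 4.16), TAGLN (7.84 ± 5.29), MYL9 (5.15 ± 2.79), MYLK (3.45 ± 0.49), LMOD1 (1.56 ± 1.21), MYH11 (1.33 ± 0.94), and ACTG2 (0.40 ± 0.20; SD, n = 3 libraries). Only TPM1 and ACTA2, as neighbours in that order, had ranges that did not overlap. At 3 hours TAGLN led with 74.3 ± 9.90 FPKM, and its lowest library (65.8 FPKM) was above the highest library of ACTA2 (19.9 FPKM), which came second. TAGLN and ACTA2 also led at 3 days (229 ± 235 and 150 ± 168 FPKM) and 14 days (311 ± 272 and 128 ± 134 FPKM), with ranges that overlapped. At 14 days MYL9 (50.8 ± 45.5 FPKM) was followed by MYLK (3.32 ± 1.22 FPKM) without overlap, and MYH11 was last with 1.13 ± 0.87 FPKM.

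Tropomyosin genes are spliced differently in smooth, striated, and nonmuscle cells. The transcript table lists 29 transcripts of the 9 genes, of which 26 were tested, and 0 were past the threshold in each comparison with the control group (14.1% of all transcripts were higher at 3 hours and 3.24% at 3 days). Between 3 hours and 14 days 2 were higher and 0 lower, where 13.9% of all transcripts were higher. The share of a count given to each transcript is an estimate, since transcripts of a gene share most of their exons. Transcript levels are also not on the scale of the gene levels and are not to be compared with them. In TL3d replicate 3, for example, transcript XM_017339267.1 of TPM2 was at 226 CPM and the TPM2 gene at 191 CPM. Percentages of a transcript refer to the summed transcript counts of its gene. For TPM1, transcript XM_017347906.1 was at 33.5 to 72.5 CPM in every library, with a log2 fold change of −0.11 (SE 0.24, q = 0.974) at 14 days against control. Transcript XM_008268802.2 was at 0.37, 19.5, and 0 CPM in control replicates 1, 2, and 3. It was at 1.13, 123, and 196 CPM at 3 days and at 0, 392, and 209 CPM at 14 days. XM_008268807.2 was at 0, 1.42, and 0 CPM in the controls and at 0, 269, and 93.7 CPM at 14 days. XM_008268806.2 was at 0, 0, and 2.66 CPM in the controls and at 2.04, 121, and 174 CPM at 14 days (log2 fold change 6.80, SE 1.93, q = 0.494). Thus the libraries with high TPM1 differed from the others in these transcripts while the first one stayed within its range. The TPM1 transcript past the threshold was the low XM_017347908.1, which rose from 2.88 CPM at 3 hours to 13.3 CPM at 14 days (2.21, SE 0.64, q = 0.0282).

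For TPM2, transcript XM_017339267.1 carried 74.9% to 92.9% of the summed transcript counts in 11 libraries and 12% in control replicate 2. It was at 13.9, 10.6, and 15 CPM in the control libraries, at 30.2, 17.9, and 22.4 CPM at 3 hours, at 50.4, 74.1, and 226 CPM at 3 days, and at 21.1, 194, and 257 CPM at 14 days. Every library after surgery was above every control. The log2 fold change was 3.15 (SE 0.82, q = 0.0545) at 3 days and 3.58 (SE 0.84, q = 0.462) at 14 days, and the rise from 3 hours to 14 days passed the threshold (2.75, SE 0.81, q = 0.0291). A second transcript, XM_017339301.1, made up 84.7% of TPM2 in control replicate 2 and 15.5% in TL3d replicate 3 but 0.433% to 3.53% in the other 10 libraries. It was at 75.0 and 46.8 CPM in those 2 libraries.

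The same 2 libraries stood apart in markers of skeletal muscle, the tissue of the extraocular muscles. The sum of 10 skeletal muscle markers was 621 CPM in control replicate 2 and 567 CPM in TL3d replicate 3, against 4.02 to 58.9 CPM in the other 10 libraries. ACTA1, the actin of skeletal muscle, was at 91.6 and 239 CPM in them and at most at 6.42 CPM elsewhere, and MYH1, a fast skeletal myosin, was at 93.5 and 34.7 CPM and at most at 0.0924 CPM elsewhere. The gene-level TPM2 values of these libraries moved with those markers, and their part in the result was not tested. At 3 days TPM2 had a log2 fold change of 2.80 (q = 0.112) when control replicate 2 was left out and of 0.68 (q = 0.611) when TL3d replicate 3 was.

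**Figure D4:**
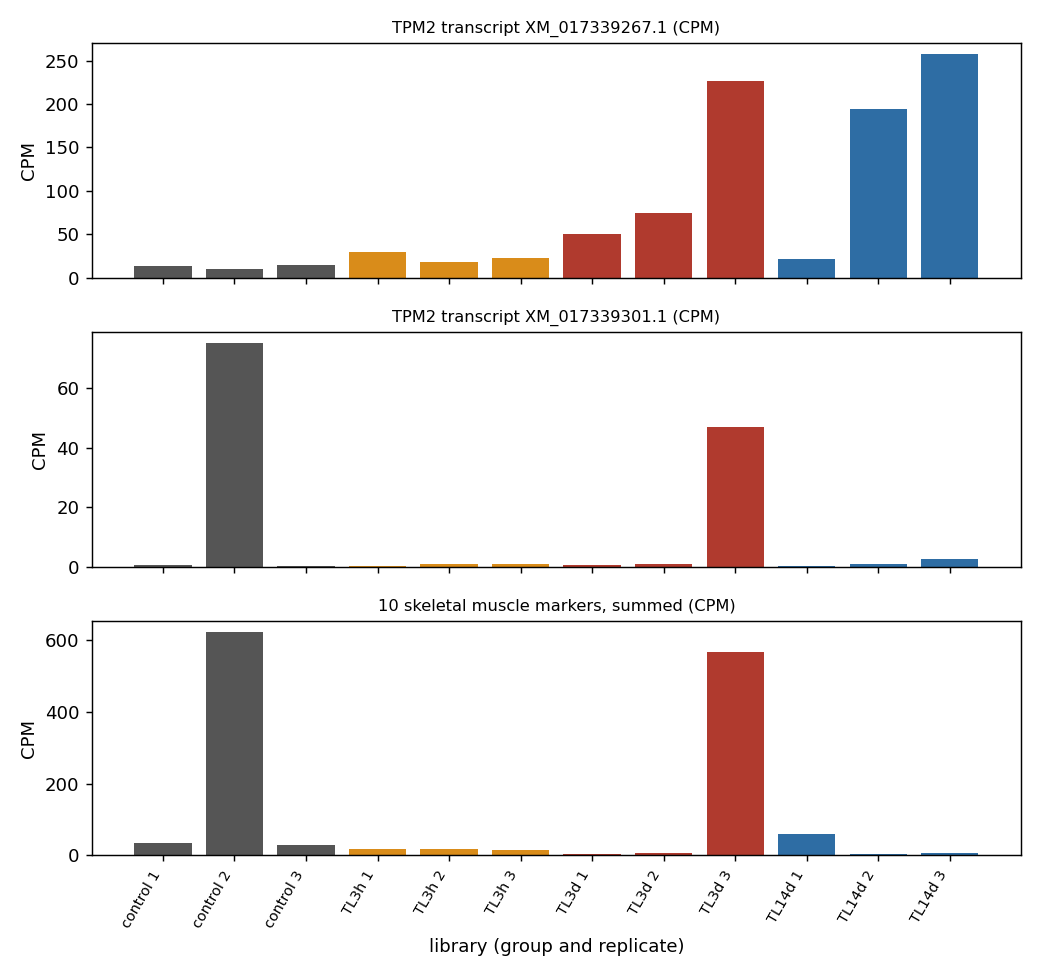
Level in each library, in CPM, of the 2 main TPM2 transcripts and of 10 skeletal muscle markers summed. The second transcript and the markers stand out in control replicate 2 (75.0 and 621 CPM) and TL3d replicate 3 (46.8 and 567 CPM), whereas the first transcript is at 194 and 257 CPM in TL14d replicates 2 and 3.

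Markers of other cells also differed between the libraries. The summed level of 13 activated fibroblast and matrix markers was 12300 to 80900 CPM in the control libraries and 108000 to 131000 CPM at 3 hours. At 3 days it was 3500, 18900, and 78700 CPM in replicates 1, 2, and 3, the same order as for all 9 contractile genes, and 6 fibroblast markers summed to 313, 1360, and 5680 CPM. At 14 days the first sum was 27800, 39500, and 78500 CPM and the second 3640, 785, and 4810 CPM, so that replicate 2, which was high in ACTA2 and TAGLN, was lowest in fibroblast markers. TNC, the matricellular protein tenascin C, was at 0.538 CPM in TL14d replicate 1 and at 1622 and 610 CPM in the other two, whereas the collagen gene COL1A1 was at 5981, 3035, and 16900 CPM. The sum of 9 pericyte markers was 319 to 708 CPM, most of it NOTCH3 in the control, TL3d, and TL14d groups except control replicate 3 and TL3d replicate 3. NOTCH3 was at 377, 349, and 259 CPM at 3 days, whereas the other 8 summed to 96.9, 168, and 450 CPM at 3 days, in the order of the contractile genes, and to 128, 102, and 318 CPM at 14 days. Of 8 endothelial markers 2 rose at 3 hours, a share near the 23.2% of all genes, PECAM1 (3.68, q = 0.0109) and CDH5 (2.46, q = 0.0401), and PECAM1 made up most of their sum of 654 to 1280 CPM (87.0 to 320 CPM in the controls). KDR (−0.82, q = 0.396), TEK (−0.35, q = 0.733), and EMCN (−0.19, q = 0.7) had values below 0. The sum of 5 pigment cell markers was 171 CPM in TL14d replicate 2, the library with the most TPM1, and 9.1 to 68.3 CPM elsewhere. The sum of 5 leukocyte markers was 479 to 1080 CPM at 3 hours and 740 to 913 CPM at 3 days, against 57.3 to 260 CPM in the controls, and 3 of the 5 rose at 3 days, PTPRC (2.53, q = 0.0217), CD68 (2.78, q = 0.00971), and CSF1R (2.35, q = 0.044), where 10.6% of all genes were higher. The sum of the 5 epithelial markers was 10300, 9770, and 4640 CPM at 3 days, the reverse of the order of the contractile genes, with KRT5 higher (1.86, q = 0.0291) and KRT15 lower (−3.03, q = 0.0291) than in the controls. None of the markers found in these lists was under the 3-count floor in all libraries of the series. The part of these cells in the contractile gene levels was not tested.

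The nonmuscle relatives of these proteins, which every cell uses for its cytoskeleton, were measured by 6 of 12 listed genes. Among all genes 23.2% were higher and 22.2% lower at 3 hours. Of these 6 genes 3 rose and 0 fell, ACTB (beta actin, log2 fold change 2.32, SE 0.25, q = 9.2e-05), TPM4 (a nonmuscle tropomyosin, 2.11, SE 0.33, q = 0.000635), and TAGLN2 (transgelin 2, 1.45, SE 0.33, q = 0.00501). ACTB was at 1238 to 1339 CPM in the control libraries and at 5250 to 7285 CPM at 3 hours, with no overlap. At 3 days ACTB (1.2, q = 0.0148) and TPM4 (1.31, q = 0.0238) were still past the threshold, 2 of the 6 genes where 10.6% of all genes were higher. By 14 days, relative to 3 hours, ACTB (−1.46, q = 0.000908) and TPM4 (−1.42, q = 0.00494) fell, as 22.3% of all genes did, while TPM1 and TPM2 rose over the same interval.

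**Figure D5:**
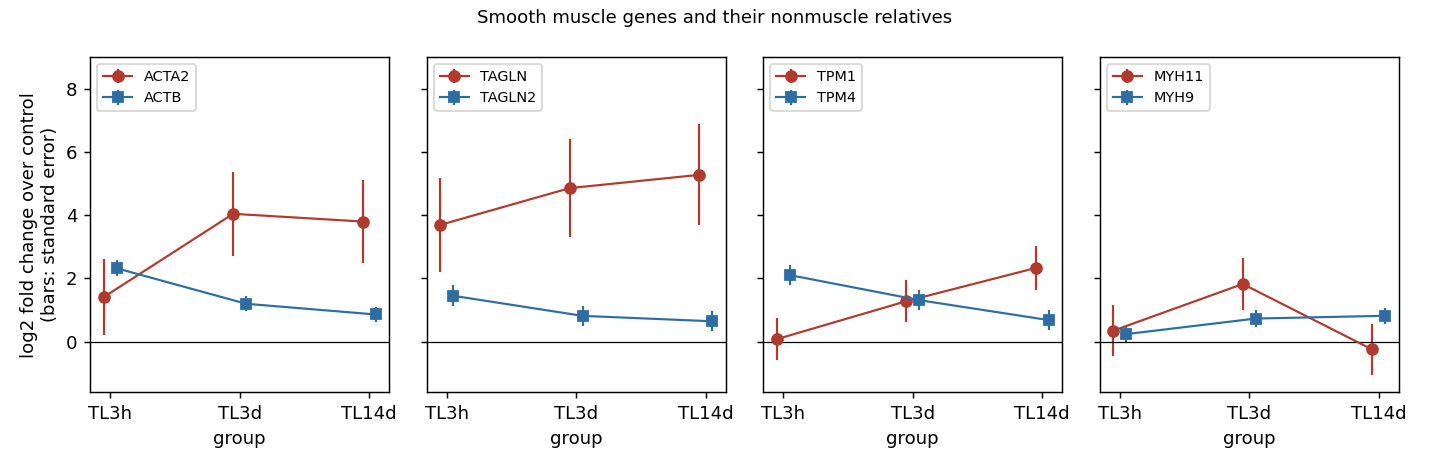
Log2 fold change over control of 4 contractile genes and of a nonmuscle relative of each in the TL3h, TL3d, and TL14d groups, with bars for 1 standard error. ACTB and TPM4 are highest at 3 hours (2.32 and 2.11), and TPM1 goes from 0.08 at 3 hours to 2.33 at 14 days.

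Of 22 other genes of smooth muscle, 5 rose at 3 hours, a share near the 23.2% of all genes. FLNA (filamin A, an actin crosslinker, 2.01, SE 0.50, q = 0.00778), PDLIM7 (1.95, SE 0.51, q = 0.0105), and ACTN1 (alpha actinin 1, which bundles actin, 1.83, SE 0.56, q = 0.0218) had the largest rises. At 3 days 4 rose and 0 fell (10.6% of all genes were higher), ACTN1 (1.97, q = 0.0387), PDLIM7 (1.95, q = 0.03), FLNA (1.58, with a q that rounds to 0.05), and SMTN (smoothelin, 1.26, q = 0.0218). At 14 days 0 were past the threshold. The sum of the 22 genes was then 957 CPM in replicate 1, within the 842 to 1220 CPM of the controls. In replicates 2 and 3 it was 2630 and 2910 CPM. Between 3 hours and 14 days KCNMA1 (4.53, SE 1.10, q = 0.00757) and KCNMB1 (3.74, SE 1.27, q = 0.0356), the pore and beta subunits of a calcium-activated potassium channel, rose. KCNMA1 was at 0.572, 11.1, and 25.1 CPM at 14 days and at most at 1.88 CPM in each library of the other groups, so that replicate 1 was again apart. Desmin (DES), an intermediate filament of smooth and skeletal muscle, was at 25.5 CPM in control replicate 2 and 83.7 CPM in TL3d replicate 3, the libraries high in skeletal muscle markers, and at 0.672 to 5.35 CPM elsewhere.

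Phosphorylation of the myosin light chain is set by its kinase and by a phosphatase, and both are regulated by further kinases and small GTPases. Of 14 genes of this control 5 rose and 2 fell at 3 hours, where 23.2% and 22.2% of all genes did, among them the small GTPases RHOB (1.93, q = 0.0323) and RHOC (1.12, q = 0.000707). PRKG1, the cGMP-dependent kinase that relaxes smooth muscle, fell by 1.79 on the log2 scale (SE 0.31, q = 0.00129). PRKG1 was at 42.1 to 57.5 CPM in the control libraries, at 7.47 to 19.9 CPM at 3 hours, and at 16.7 to 18.1 CPM at 3 days, and at 14 days it was again at 42.7 to 66.2 CPM. At 3 days 0 rose and 2 fell (17.6% of all genes were called in either direction), PRKG1 (−1.54, q = 0.0155) and ARHGEF12 (−0.87, q = 0.0267), an exchange factor for small GTPases. PRKG1 rose from 3 to 14 days (1.65, SE 0.31, q = 0.0344), the only one of the 14 genes past the threshold in that step, as 2.24% of all genes were. Between 3 hours and 14 days 2 of the 14 rose and 4 fell, against 22.9% and 22.3% of all genes, and from 3 hours to 3 days 1 rose and 3 fell, where 37.3% of all genes were called.

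Transcription of contractile genes is driven by serum response factor with its cofactors and by TGF-beta signalling. Of 16 genes of this control, 5 rose and 2 fell at 3 hours, beside the 23.2% and 22.2% of all genes. SRF itself rose from 24.9 to 29.4 CPM in the control libraries to 85.1 to 141 CPM (2.10, SE 0.21, q = 7.31e-05). SKIL (1.95, q = 0.00177) and SMAD7 (1.86, q = 0.0337), which restrain TGF-beta signalling, rose too, and MKL2, an SRF cofactor, fell (−1.08, q = 0.00107). At 3 days 2 rose and 0 fell, with 10.6% of all genes higher, TGFB1, the ligand (1.78, SE 0.54, q = 0.0474), and MKL1, the other cofactor of that family (0.97, SE 0.21, q = 0.0177). At 14 days 0 of the 16 were past the threshold, and from 3 hours to 14 days 3 rose and 3 fell, against 22.9% and 22.3% of all genes, with SRF lower (−1.59, q = 0.000275). MYOCD, the cofactor of SRF in mature smooth muscle, was at 0.0336 to 0.569 CPM, near the floor in most libraries.

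The genes most like ACTA2 were sought among all non-listed genes by the root mean square difference of log2 CPM (pseudocount 0.5), each gene centred on its mean, over 12 libraries. The nearest were COL12A1 (difference 0.62), CTHRC1 (0.67), LOC100009332 (0.71), COL5A3 (0.74), and P4HA3 (0.75). COL12A1 and COL5A3 encode collagen chains, P4HA3 a subunit of prolyl 4-hydroxylase, which acts on collagen, and LOC100009332 is the second transgelin row. COL12A1 went from a mean of 11.9 CPM in the control group to 71.6 CPM in the TL3h group, 342 CPM in TL3d, and 450 CPM in TL14d. Nearest to the median profile of the 9 genes were HHIPL1 (0.45), ST3GAL5 (0.47), KCNMB1 (0.51), GPC4 (0.51), and KCNK3 (0.53). These likenesses are descriptions over libraries that share surgery, time, and depth.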

How the data were processed

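Conjunctival RNA of 12 libraries was analysed, 3 per group, with groups from the sample labels. Libraries were made with a stranded mRNA kit. The authors mapped paired-end reads to OryCun2.0 with STAR (version 2.6.0c per the submitters' processing notes) and deposited estimated counts, not divided by library size, for 20566 genes and 38710 transcripts, together with FPKM values divided by length and depth. Of the counts per gene, 23.4% were fractions (tolerance 1e-06). How a read with several placements was divided is not given in the sources used here.

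Counts were rounded. The edgeR 4.0.16 filter filterByExpr (minimum count 10, minimum total 15) kept 14835 genes and 26082 transcripts. TMM normalization and a quasi-likelihood fit over 12 libraries without covariates followed under R 4.3.3, and p-values were adjusted by Benjamini-Hochberg. The standard error of a log2 fold change is its size over the square root of F. The fit was also run on simulated data, and the outcome is not reported here. Deposited FPKM values served to compare genes and in 1 alternative. With 3 libraries against 3, an exact permutation test cannot go below 0.10, so none is given.

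The contractile genes, the other gene lists, and the tests were chosen with earlier results of these data known. All contractile genes are named; from other lists, up to 4 genes per comparison with the largest change among called genes whose mean level was 1 CPM or more; the 5 nearest profiles; and transcripts with at least 10% of a gene's counts (TPM1 and TPM2 alone had more than 1 such transcript, and only theirs are named). Some genes that this rule names are not reported here. Some other genes and transcripts (TNC, COL1A1, DES, ACTA1, MYH1, XM_017347908.1) were named after their values were seen. Alternatives were no filter, DESeq2 1.42.0 size factors and test, library size alone, limma 3.58.1 on log2 CPM (prior count 2) and on log2 FPKM (pseudocount 0.1), the 6 libraries of a comparison alone, a replicate block, and each library left out. Summing the 2 transgelin rows was chosen after seeing the data.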

Additional observations from a re-analysis of the deposited data

Results flagged for a closer look

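The effects of surgery on both tropomyosin genes differed between 3 hours and 14 days in the direct test of TL14d against TL3h. The difference in log2 fold change over control was 2.25 for TPM1 (edgeR q = 0.0235) and 2.58 for TPM2 (q = 0.0443). These were 2 of the 9 contractile genes, a share near the 22.9% of all genes that were called higher in this test. Of the 12 fits that left out 1 library, 4 lost the TPM1 call and 6 lost the TPM2 call. For both genes 2 of the 3 TL14d libraries were above all TL3h libraries, and replicate 1 was not. The TPM2 difference was 1.98 (q = 0.105) with the replicate number as a block, the TPM1 call was lost with the 6 libraries alone (2.35, q = 0.0539), and both were lost with limma on log2 CPM (1.7, q = 0.0859, and 2.05, q = 0.0956). The groups held 3 libraries each, so single libraries were not tested as outliers.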

How the results depend on the processing

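Of 438 values of single genes under the other settings, 399 kept their direction and side of the threshold, 24 newly passed it, 7 lost it, and 8 changed sign. The number of contractile genes called higher at 3 hours (0) was 1 with the DESeq2 test and 2 with the 6 libraries alone, where 45.4% of all genes were called as reported, 50.8% by DESeq2, and 45.5% with 6 libraries. At 3 days (1) it was 4 with the DESeq2 test, 0 with limma on log2 FPKM or log2 CPM (ACTG2 lost), and 2 with 6 libraries; all genes called rose from 17.6% to 30.1% with DESeq2 and 22.6% with 6 libraries, and were 18.3% and 18.9% with limma. At 14 days (0) it was 4 with the DESeq2 test, which called 2.47% of all genes against 0%. From 3 hours to 3 days (0) it was 2 with library size alone, 3 with the DESeq2 test, and 2 with 6 libraries (42.5%, 44.7%, and 40.9% of all genes, against 37.3%). From 3 hours to 14 days (2) it was 4 with library size alone, 4 with the DESeq2 test, 0 with limma on log2 CPM, and 1 with 6 libraries (TPM2; TPM1 lost; 50.2%, 51.3%, 46.0%, and 36.7% of all genes, against 45.3%). In the joint test (2) it was 5 with library size alone (56.1% of all genes, against 52.4%). Of transcripts, library size alone called 1 at 3 hours, 1 from 3 hours to 3 days, and 4 from 3 hours to 14 days (main value 2), where it called 32.5%, 25.4%, and 31.5% of all transcripts, against 28.3%, 21.4%, and 27.4%. The causes were not tested, except that library size alone shifted the median of all genes at 3 hours by −0.50 on the log2 scale and left 1889 higher and 5674 lower calls, in place of 3435 and 3298. There the 3-hour log2 fold change of MYH11 became −0.153 and that of TPM1 −0.419, and with limma on log2 FPKM that of TPM1 was −0.397. With limma on log2 CPM, MYLK from 3 hours to 3 days was −0.145 and TAGLN from 3 hours to 14 days −0.272; TAGLN from 3 to 14 days was −0.507, and −0.497 with log2 FPKM. Summing both transgelin rows changed no call.

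The replicate number was also fitted as a block. Same-numbered libraries deviated together (correlation over 0.1) in 8 of 18 pairs, from −0.16 to 0.526, and the labels tie no numbers to animals, so the numbers were not taken to pair the libraries; the pairing of eyes is not known. Replicate 3 of the control, TL3d, and TL14d groups was correlated at 0.368, 0.446, and 0.503. With the replicate block 1 contractile gene was called at 3 hours (TAGLN), 0 at 3 days (ACTG2 lost, q = 0.0629), 0 at 14 days, and 1 in the joint test, where 46.8%, 18.3%, 0%, and 53.0% of all genes were called. From 3 hours to 14 days TPM2 lost its call under the block (1.98, q = 0.105), LMOD1 passed (1.32, q = 0.0242), and TPM1 stayed past the threshold (1.87, q = 0.0496). TAGLN from 3 hours to 3 days was −0.198.

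With 1 library left out, 0 to 1 genes were called higher at 3 hours, 0 to 5 at 3 days, 0 to 4 at 14 days, 0 to 4 from 3 hours to 3 days, 0 to 4 from 3 hours to 14 days, and 0 to 6 in the joint test. The same fits called 34.9% to 48.1%, 2.37% to 25.0%, 0% to 4.74%, 26.1% to 41.2%, 36.2% to 45.0%, and 41.2% to 56.5% of all genes. Transcripts called were 0 to 1, 0 to 5, 0 to 4, 0 to 3, and 0 to 8 in the same order without the joint test, and of all transcripts 18.1% to 29.6%, 0% to 10.7%, 0% to 1.57%, 12.5% to 23.0%, and 20.2% to 26.4%. Of 648 values, 26 changed sign. Their ranges at 3 hours were −0.0612 to 0.99 for MYH11, −0.059 to 0.141 for TPM1, and −0.979 to 0.492 for TPM2. At 3 days they were −1.1 to 0.584 for LMOD1 and −1.23 to 0.238 for MYLK, and at 14 days −0.653 to 1.2 for LMOD1, −1.07 to 0.396 for MYH11, and −0.267 to 0.211 for MYLK. From 3 hours to 3 days they were −0.794 to 0.67 for MYLK and −0.0504 to 1.71 for TAGLN. From 3 to 14 days they were −1.42 to 1.24 for ACTA2, −0.346 to 1.4 for LMOD1, −0.307 to 1.16 for MYLK, −0.175 to 1.64 for TAGLN, and −0.291 to 1.29 for TPM2. At this depth ACTG2 and MYOCD rest on few counts in the control libraries.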
